A study of Mus musculus with 24 samples.

Results

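The globins described here are the alpha-like and beta-like chains of mouse haemoglobin, taken as every probe whose annotation gives exactly 1 gene symbol beginning with Hba- or Hbb-. The rule found 3 genes on 7 probes, of 6970 genes on 9684 probes with 1 symbol in the whole series. All 7 lay in the second of the series' 2 value tables, with 1 probe for Hba-x, 4 for Hbb-y and 2 for Hbb-b1, and the first table held 0. The study set RNA of embryos grown in culture at 37 °C against RNA of embryos cultured with 40 µM 4-hydroperoxycyclophosphamide (4CP), a form of cyclophosphamide that needs no metabolic activation, for 1 h. Both RNAs were hybridised together on 24 arrays, 12 to a table. The labels read here give no strain, genotype, embryonic stage or number of embryos per RNA, so no such limits on the 2 groups can be stated beyond this. A table held 3 pairs of slides with 2 arrays per slide, and the second slide of a pair carried the channels swapped.

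Haemoglobin is a tetramer of alpha-like and beta-like chains around haem. The first red cells of the mouse embryo, the primitive erythroid cells, arise in the blood islands of the yolk sac and make embryonic chains, among them zeta globin (Hba-x) and epsilon-y globin (Hbb-y). Definitive red cells, which come later from the fetal liver and then the bone marrow, make adult chains such as beta globin (Hbb-b1). Whole embryos were measured as bulk RNA, so fewer red cells and less globin RNA per red cell cannot be told apart in these values.

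The upstream sequence of both embryonic globin genes is shown because the results turn mostly on these genes, which primitive red cells express together. RefSeq's table for GRCm38.p6 held 250 bases before the start of Hba-x, chr11:32276350-32276599 on the plus strand, and of Hbb-y, chr7:103853208-103853457 on the minus strand. Hbb-b1 had no entry. Capitals mark matches, on either strand, to GATAA (the core bound by GATA factors), CACCC (the core bound by KLF factors), CCAAT and TATAA.
Hba-x: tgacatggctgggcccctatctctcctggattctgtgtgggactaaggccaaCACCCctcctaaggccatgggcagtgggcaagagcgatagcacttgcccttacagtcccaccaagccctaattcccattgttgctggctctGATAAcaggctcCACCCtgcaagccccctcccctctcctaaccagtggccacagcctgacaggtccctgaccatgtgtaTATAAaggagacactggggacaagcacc
Hbb-y: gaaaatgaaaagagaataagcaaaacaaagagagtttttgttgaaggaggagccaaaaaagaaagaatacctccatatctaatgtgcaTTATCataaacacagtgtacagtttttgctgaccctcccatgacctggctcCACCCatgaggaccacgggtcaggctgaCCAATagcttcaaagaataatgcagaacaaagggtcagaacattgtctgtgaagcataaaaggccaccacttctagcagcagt
Hba-x held 1 match to GATAA starting 107 bases before the gene start, 2 to CACCC at 198 and 95 bases and 1 to TATAA at 28 bases. Hbb-y held 1 match to GATAA in reverse (TTATC) at 162 bases, 1 to CACCC at 111 bases and 1 to CCAAT at 83 bases. No marked matches overlapped. Such short words are common, as GATAA was found in 22.6% of 32851 windows of the same length, CACCC in 52.0%, CCAAT in 33.9% and TATAA in 22.8%, so a match describes the letters and no more.

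Every deposited value is a log ratio of the 2 channels of an array, with neither the base (2 or e) nor the numerator stated. Arrays of the second table had medians between 0.272 and 2.10, and each was centred on its own median, so values are relative to the median probe of the array. For a slide pair, the treatment effect is taken as the value of the slide that carried treated RNA in channel 1, less that of its swapped partner, over 2. Positive effects mean a higher level after treatment provided that the ratio has channel 1 on top and swapped slides were not turned before deposit. With channel 2 on top, every sign turns together. The mean of both orientations is the sum of these slides divided by 2. It holds what does not turn with the swap, and it would be the treatment effect itself if swapped slides had been turned before deposit. A ratio carries no expression level, so neither the abundance of a globin nor the labelled tissue could be checked against markers. The labels do not say that slide pairs came from separate cultures, so their spread, given as SD with n = 3, may be technical.

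None of the 7 globin probes passed the test in the second table, where 0% of 7680 probes passed limma's adjusted p threshold of 0.05 and 401 had an unadjusted p under it. The lowest adjusted p among the globins was 0.940, for Hba-x. Averaged over the 3 genes, pair 1 gave -0.0957, pair 2 gave 0.0260 and pair 3 gave -0.0358, for a mean of -0.0351 ± 0.0609 (SD, n = 3). The median over all probes was -0.00148. Hba-x and Hbb-y had negative means and Hbb-b1 a positive one.

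Hba-x encodes zeta globin, the embryonic alpha-like chain, and was the 1 globin gene with a negative effect in all 3 pairs. In pair 1 its centred log ratio was -1.13 and -1.26 on the arrays with treated RNA in channel 1, and -0.925 and -1.15 on those with treated RNA in channel 2. The same arrays of pair 2 had -0.446 and -0.601 against -0.400 and -0.485. In pair 3 they had -1.90 and -1.92 against -1.62 and -1.61. The arrays of the 2 orientations overlapped in pairs 1 and 2 and stood apart in pair 3, and pair 3 had the lowest values on every array.

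The effects of Hba-x were -0.0772, -0.0407 and -0.145 in pairs 1, 2 and 3, with a mean of -0.0877 ± 0.0531 (SD, n = 3). In size, the mean is a 1.06-fold decrease if the logs are of base 2, or a 1.09-fold decrease if they are natural logs. That direction holds provided that the ratio has channel 1 on top. Size and direction also assume that swapped slides were not turned before deposit. Had they been turned, the mean of both orientations of Hba-x, -1.12, would take the place of this effect. The first arrays of each slide gave -0.102, -0.0233 and -0.139, and the second arrays gave -0.0524, -0.0581 and -0.152. All of these values were negative, as the effects of the 3 pairs were, and the arrays of a slide are not replicates of the treatment. The limma interval at 95%, not adjusted for the number of probes, ran from -0.162 to -0.0137, and the adjusted p was 0.940 with limma. An effect negative in all 3 pairs was seen for 14.7% of all probes, and Hba-x was 1 of 7 globin probes with it. The opposite pattern, positive in all 3 pairs, was seen for 9.84% of all probes and 0 of the 7. By its mean effect Hba-x stood at the 3.76th percentile of all probes of the table.

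Hbb-y encodes epsilon-y globin, the embryonic beta-like chain, and its direction was not shared by the pairs. Averaged over its 4 probes, pair 1 had -1.05 and -1.09 with treated RNA in channel 1 against -0.673 and -0.850 with it in channel 2. Pair 2 had 0.0856 and -0.0507 against -0.0173 and -0.0921. Pair 3 had -1.37 and -1.28 against -1.28 and -1.22. The orientations stood apart in pair 1 and lay close together in pairs 2 and 3.

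Pair 1 gave an effect of -0.155, pair 2 of 0.0361 and pair 3 of -0.0369, with a mean of -0.0521 ± 0.0967 (SD, n = 3). Without pair 1 the mean was -4.23e-04, and those of probes 1 and 2 were positive, at 0.0142 and 0.00994. The 4 probe means were -0.0418, -0.0428, -0.0576 and -0.0663, and their adjusted p-values with limma ran from 0.949 to 0.982. The probes followed each other closely within a pair. They ran from -0.161 to -0.148 in pair 1, from 0.0196 to 0.0584 in pair 2 and from -0.0668 to -0.0191 in pair 3. The largest SD between probes of a pair was 0.0207, while the SD between pairs of their mean was 0.0967. These probes read the same RNA on the same arrays and are not replicates of the treatment. In pair 1 they stood between the 0.599th and the 0.964th percentile of all probes, and in pair 2 between the 64.4th and the 84.5th.

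Hbb-b1, an adult beta globin, was positive in pairs 2 and 3 and negative in pair 1. Averaged over its 2 probes, pair 1 had -0.0905 and -0.292 with treated RNA in channel 1 against 0.0246 and -0.190 with it in channel 2. Pair 2 had 0.688 and 0.374 against 0.449 and 0.282. Pair 3 had -0.139 and -0.459 against -0.313 and -0.584. In every pair the second array of a slide was lower than the first, and the orientations overlapped throughout.

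The gene's effects were -0.0543, 0.0827 and 0.0748, with a mean of 0.0344 ± 0.0769 (SD, n = 3). That mean was 0.0787 without pair 1, 0.0102 without pair 2 and 0.0142 without pair 3. Probe 1 had a mean of 0.0409 ± 0.0425 and probe 2 of 0.0279 ± 0.112, with adjusted p-values of 0.977 and 0.991 with limma. With values as deposited, without centring, the gene's mean effect was -0.0184, so its positive sign holds only relative to the median probe. In pair 1 the probes differed, at -0.00753 and -0.101, and without pair 2 or pair 3 probe 2 had a mean of -0.00483 or -0.00386. The adult beta globin genes are close copies of each other, and RNA of a copy may bind these probes, so the values are uncertain as to the gene.

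**Figure D1:**
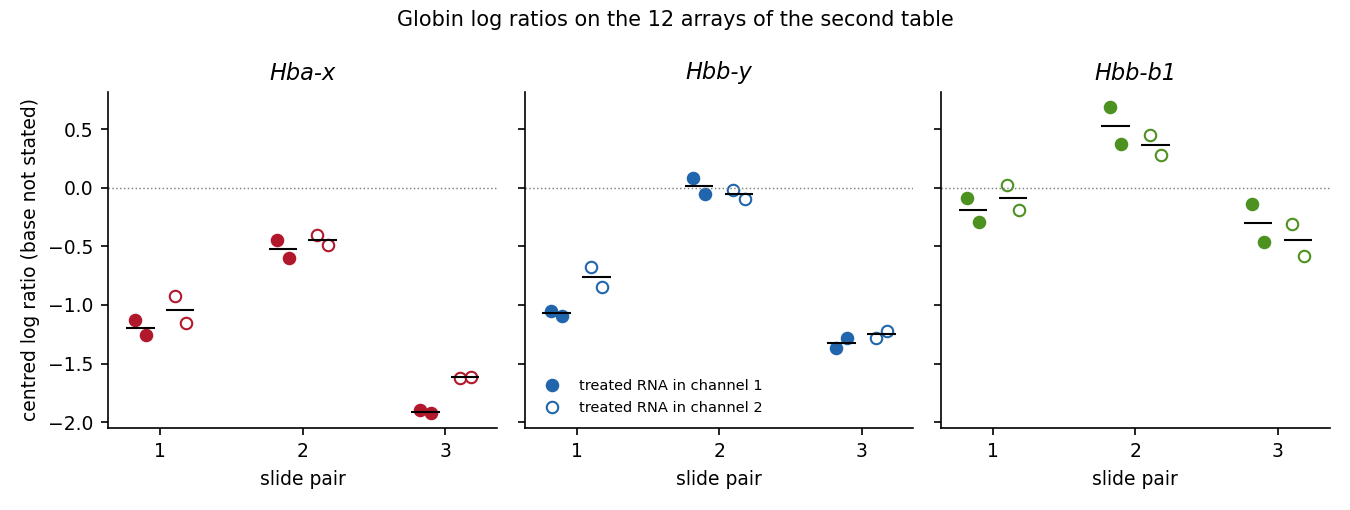
Centred log ratio (base not stated) of Hba-x, Hbb-y and Hbb-b1 on each of the 12 arrays of the second table, by slide pair; filled points are arrays with treated RNA in channel 1, open points arrays with it in channel 2, and lines are slide means. Slide pairs differ more than the orientations within a pair do, and Hba-x is lowest in pair 3, between -1.92 and -1.61.

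**Figure D2:**
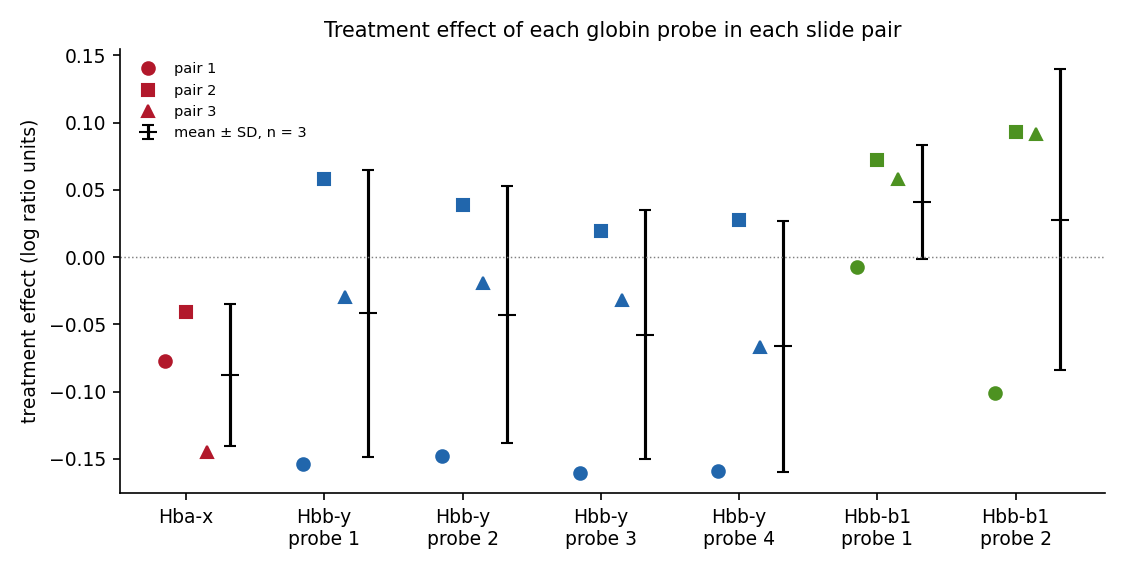
Treatment effect of each of the 7 globin probes in log ratio units, with a symbol for each slide pair and the mean ± SD over 3 pairs in black. Hba-x lies below 0 in all pairs, the 4 Hbb-y probes repeat one pattern with pair 1 near -0.15, and both Hbb-b1 probes lie above 0 in pairs 2 and 3.

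Differences between globin genes were taken within a pair, where any shift common to an array cancels. These 3 contrasts were chosen after the values were seen. Hbb-y minus Hbb-b1, the embryonic against the adult beta-like chain, was -0.101, -0.0466 and -0.112 in pairs 1, 2 and 3, with a mean of -0.0865 ± 0.0350 (SD, n = 3). The embryonic alpha-like chain against the same adult chain, Hba-x minus Hbb-b1, was -0.0229, -0.123 and -0.220, with a mean of -0.122 ± 0.0986. Both differences were negative in 3 of 3 pairs, but they share Hbb-b1 and are not independent of each other. An exact two-sided sign-flip permutation test gave p = 0.25 for each (n = 3, adjusted p = 0.375 over the 3 contrasts), which is the smallest p that this test can give with 3 pairs, so it cannot reach 0.05. Without pair 3, Hba-x minus Hbb-b1 was -0.0731. Hba-x minus Hbb-y was 0.0783, -0.0768 and -0.108, with a mean of -0.0356 ± 0.0999 and no shared sign (exact permutation p = 0.75, n = 3, adjusted p = 0.75).

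The mean of both orientations was much larger than the treatment effect for the embryonic globins. Hba-x had -1.12, -0.483 and -1.76 in pairs 1, 2 and 3, with a mean of -1.12 ± 0.641 (SD, n = 3), and stood between the 1.08th and the 2.86th percentile of all probes in each pair. Hbb-y had -0.917, -0.0186 and -1.29, with a mean of -0.741 ± 0.652. Hbb-b1 had -0.137, 0.448 and -0.374, with a mean of -0.0208 ± 0.423, and its 2 probes lay apart, at 0.187 and -0.229. The order Hba-x, Hbb-y, Hbb-b1 from lowest to highest was the same in every pair. Hbb-y minus Hbb-b1 was -0.780, -0.467 and -0.913 on this quantity, and Hba-x minus Hbb-y was -0.200, -0.464 and -0.477.

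Of the 7 globin probes, 4 had a negative mean of both orientations in all 3 pairs, against 17.9% of all probes. These were the Hba-x probe and probes 1, 2 and 3 of Hbb-y. The Hbb-y probes read the same RNA and are not independent of each other. In pair 2 they ran from -0.0504 to 0.0254 on this quantity. None of the 7 passed limma on this quantity, where 0% of all probes passed, with adjusted p-values from 0.198 for Hba-x to 0.660 for probe 2 of Hbb-b1. These calls depended on the setting. Hba-x had an adjusted p with limma of 0.00754 when arrays were scaled to 1 spread, 0.00116 after quantile normalization, and from 5.51e-08 to 0.0276 when any 1 pair was left out, with 0.0919 to 0.299 under the other settings. Without pair 2, where their values were nearest 0, the Hbb-y probes had means from -1.13 to -1.08 and adjusted p-values of at most 2.22e-06, and probe 2 of Hbb-b1 had -0.526 with 0.0108. Without pair 2, 1872 probes of the table passed in all. Those fits rest on pairs 1 and 3 alone, and each fit with a pair left out is as small. With so few pairs limma leans on the variance of all probes together, so such small p-values do not measure agreement between pairs. If swapped slides had been turned before deposit, the means of both orientations would be the treatment effects of the globins. Which reading applies is not stated. By their means, the signs of Hba-x and Hbb-y were the same under both readings, and that of Hbb-b1 was not. In pair 2 Hbb-y differed in sign, at 0.0361 against -0.0186. The mean of both orientations of Hbb-b1, -0.0208 ± 0.423 (SD, n = 3), was small beside its spread. How many of all probes kept their sign was not counted.

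**Figure D3:**
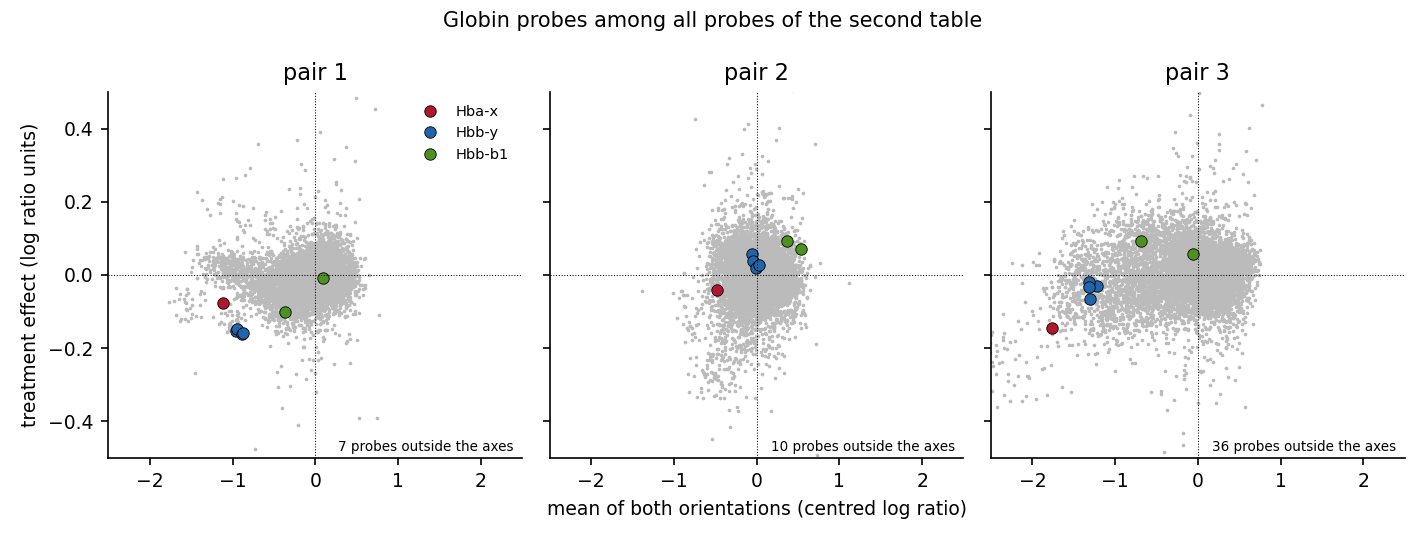
Treatment effect (vertical, log ratio units) against the mean of both orientations (horizontal, centred log ratio) for all 7680 probes of the second table in each slide pair, globin probes in colour; 7, 10 and 36 probes lie outside the axes in pairs 1, 2 and 3. Hba-x lies towards the left of the probes in every pair, and the 4 Hbb-y points lie close together.

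A further 20 probes of the second table and 2 of the first list a globin among several symbols, and no gene was assigned from them. In the second table, 19 of them list both adult alpha globin genes, Hba-a1 and Hba-a2, beside the histone gene H3f3a. Their mean effects ran from -0.0880 to -0.0202 with a median of -0.0645, and 11 of the 19 were negative in all 3 pairs, where the share of all probes was 14.7%. They share symbols, and so a target, and are not independent of each other. Pair 1 gave the lowest median, -0.123, followed by pair 3 with -0.0636 and pair 2 with -0.00674. The order of pairs was the same for Hbb-y and for Hbb-b1. The mean of both orientations was negative for all 19 in every pair, with a median of -0.927. The probe with the same symbols in the first table had effects of 0.0222, 0.0977 and -0.0682. The second-table probe that lists Hbb-b1 with Hbb-b2 had -0.0216, 0.0617 and 0.00940, and its first-table counterpart 0.0508, 0.0732 and -0.0643. None of these 22 probes passed the test of the treatment effect. On the mean of both orientations 1 of them passed, the first-table probe that lists Hba-a1, Hba-a2 and H3f3a, with -0.584, -0.402 and -1.70 in pairs 1, 2 and 3 and a mean of -0.894 (adjusted p = 0.0299 with limma, from 7.90e-05 to 0.486 over the alternatives), where 2.85% of first-table probes passed. It missed the threshold without pair 1 (0.180) and with the trended and robust prior (0.486).

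Over the 12 centred arrays of the second table, the globins were also set against the other 4074 named genes by Pearson's r, as a description. All arrays of a pair share RNA and a large common component, and 434 genes had r above 0.95 with Hba-x, 366 with Hbb-y and 140 with Hbb-b1. The genes most like Hba-x were Pcbp2 (r = 0.997), Erh (r = 0.996) and Gnai3 (r = 0.995). Those most like Hbb-y were Mrpl17 (r = 0.991), Gnb2 (r = 0.991) and Ubtf (r = 0.991), and those most like Hbb-b1 were Mthfd1 (r = 0.988), Fbl (r = 0.988) and Zcchc17 (r = 0.986). Hbb-y was 352nd in the ranking for Hba-x (r = 0.957), and Hbb-b1 1032nd (r = 0.884). In the ranking for Hbb-y, Hbb-b1 was 585th (r = 0.928). So the globins were not each other's nearest neighbours here.

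No other measured gene of red cell formation passed the test. Of 93 genes on lists for haem synthesis, iron supply, erythroid transcription factors, red cell membrane, red cell enzymes and other globins, the first table measured 22 and the second 25. The call was limma's adjusted p, in the first table with 0% of 7680 probes called and 180 unadjusted p-values under 0.05, and in the second as given above. Of the 22 first-table genes, 11 were positive and 11 negative, and 6 kept 1 sign in all 3 pairs, where 23.6% of all named genes did. Of the 25 second-table genes, 10 were positive and 15 negative, and 4 kept 1 sign, all negative, where 25.9% of all named genes did. The medians were 0.00421 and -0.00380, against 0.00116 and -0.00316 over all named genes.

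Of the haem synthesis genes, 6 of 7 in the second table had negative means with a median of -0.0178, where 2202 of all 4075 named genes did, and 4 of 5 in the first with a median of -0.0250, where 1882 of 3838 did. None passed the test. Alas2, the enzyme that starts haem synthesis in red cells, had -0.0534, -0.0540 and -0.0538 in pairs 1, 2 and 3, a mean of -0.0537 ± 3.15e-04 (SD, n = 3, adjusted p = 0.949 with limma). The median SD over pairs was 0.0493 for all second-table probes. With treated RNA in channel 1 alone the mean of Alas2 was -0.0965, and with channel 2 alone -0.0110. Uros, a later enzyme of the pathway, had -0.0382, -0.0237 and -0.0441, a mean of -0.0353 ± 0.0105. In the first table no haem synthesis gene kept 1 sign in all pairs.

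Iron supply genes were mixed, as 5 of 7 first-table genes and 3 of 6 second-table genes were positive. Ftl1, the ferritin light chain that stores iron, had 0.114 ± 0.105 (SD, n = 3) over 5 first-table probes, and Ncoa4, which delivers ferritin for breakdown, had 0.0502 ± 0.0229. Ireb2, a regulator of iron-responsive messages, had -0.0363 ± 0.0427 in the second table. The signs of Ftl1 and Ncoa4 turned negative with values as deposited, where the median of all first-table probes lay at -0.128.

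Few transcription factors and membrane genes of red cells were measured. The first table held 3 of the 20 factors and the second held 2, among them Gata1, the main factor of erythroid cells, at -0.0124 ± 0.0231 (SD, n = 3), a sign that turned under scaling and under quantile normalization. Ldb1, a partner of Gata1 complexes, had 0.102 ± 0.0855, which was 0.0598 without pair 1 and -0.0222 with values as deposited. Slc4a1, the anion exchanger band 3, had -0.0776, 0.0386 and -0.0417 in the second table, and its mean of -0.0269 was -0.00157 without pair 1. Rhd, of the Rh blood group complex, had -0.0398 ± 0.0373 there, and Slc2a1, a glucose transporter, had 0.0529 ± 0.0198 in the first table and -0.0709 with values as deposited. Among red cell enzymes, Blvrb, a biliverdin reductase, had -0.0339 ± 0.0224 in the first table, and none of 6 kept 1 sign in the second. Ngb, neuroglobin, a globin of nerve cells, was the 1 measured gene of 5 other globins, at 0.0796 ± 0.120. Values of Gata1, Slc4a1 and Ngb are given although the naming rule did not pick them, and they were chosen after their values were seen.

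Of 10 primitive erythroid markers, 4 were in the second table, Hba-x and Hbb-y among them, and all had negative means, from -0.0877 to -0.0269, where 2202 of all 4075 named genes had negative means. Of these 4, Hba-x and Alas2 were negative in every pair, where 14.7% of all second-table probes were, and none passed the test. Markers of other cells that whole embryos can hold were few. In the second table these were Cd34 for endothelial and haemogenic cells, at -0.0141, and none for yolk sac visceral endoderm, macrophages, heart or neural tube. The first table measured 4 of 10 yolk sac endoderm markers, apolipoprotein genes and transthyretin, all with negative means from -0.0589 to -0.0203, where 1882 of all 3838 named genes had negative means. Of these 4, Apoa1 kept 1 sign in all pairs, where 23.6% of all named first-table genes did. In the first table, the 2 measured markers of 4 for neural tube, Nes and Tubb3, had 0.0536 and 0.0580, and Cdh5 of endothelial cells had 0.0203. Nes, Tubb3 and Cdh5 were each positive in every pair, where 23.6% of all named first-table genes kept 1 sign of either kind. Lyz2 of macrophages had -0.00232 there, and Prl8a2, of decidua, had 0.174 ± 0.390 (SD, n = 3). Hbb-b1 itself was the 1 second-table gene on the list for adult (maternal) red cells and trophoblast or decidua, so maternal and embryonic sources of its RNA cannot be told apart. Their part in the globin values was not tested.

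**Figure D4:**
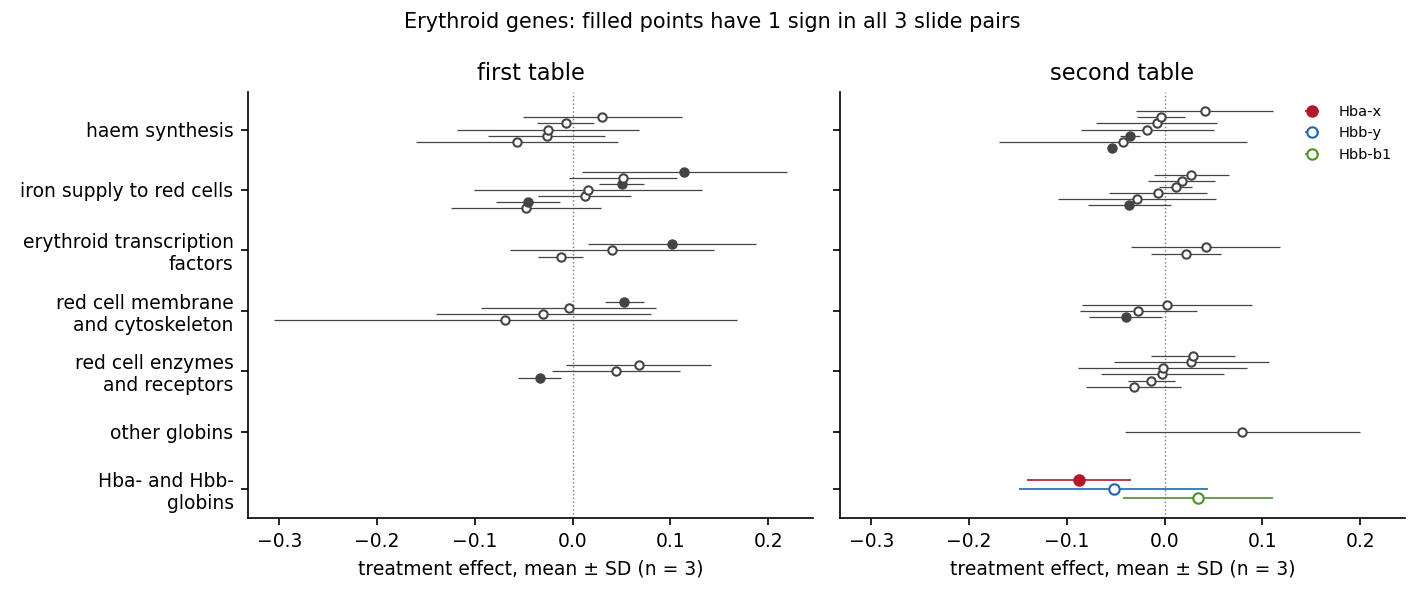
Mean treatment effect ± SD over 3 slide pairs for genes of 6 erythroid lists in the first and second tables, with the 3 globin genes in colour at the bottom of the second; filled points have 1 sign in all pairs. Most points lie within 0.1 of 0, Alas2 has the narrowest bar at -0.0537, and Hba-x is the lowest mean of the second-table panel at -0.0877.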

How the data were processed

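Log ratios of 24 two-channel arrays were analysed as the authors deposited them, in 2 tables of 7680 probes. The sources used here do not give their background correction, normalization, log base or dyes, and how far signal exceeded background is unknown. Each array was centred on its median, the 2 arrays of a slide were averaged, and slides of a pair were combined as described. Mean effects were tested against 0 over 3 pairs per table with limma 3.58.1 (lmFit, eBayes) in R 4.3.3, Benjamini-Hochberg adjusted over all probes, threshold 0.05. The procedure was tested on simulated data with effects much larger than those of the globins and a spread common to all probes. That test says nothing on power for effects of the size seen here. Probes were named through the platform annotation, with symbols updated by gene identifier: 4749, 227 and 2704 first-table probes and 4935, 275 and 2470 second-table probes had 1, several or no symbol. Probes of a gene were averaged for gene values. Named genes were all members, per list and table up to 2 genes with the largest mean among those with 1 sign in all pairs, and per globin the 3 genes with the highest r. The mean over the globins could not be formed for the first table, which held none. Members, lists and rules were chosen with earlier results of these data known. Alternatives were no centring, scaling, quantile normalization, no turn, 1 orientation, 1 array per slide, each pair left out, slides unpaired and a trended prior. Removal of a lowess trend (span 0.3) on the mean of both orientations, local centring (240 neighbouring probes at a time) and the gene contrasts were added after seeing the data.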

Additional observations from a re-analysis of the deposited data

How the results depend on the processing

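No globin probe passed the test of the treatment effect under any alternative run (adjusted p from 0.198 to 1.00 with limma). On the mean of both orientations Hba-x passed under scaling, quantile normalization and each pair left out, and the Hbb-y probes and probe 2 of Hbb-b1 without pair 2, as given above. The number of slide pairs, 3 per table, limits the precision. The largest dependence was on the orientation. With treated RNA in channel 2 alone, the mean over the globins was 0.592 in place of -0.0351, Hba-x had 1.03, Hbb-y 0.689 with 0.698, 0.729, 0.678 and 0.650 on its probes, probe 1 of Hbb-b1 -0.146, and the contrasts 0.978 (Hba-x minus Hbb-b1), 0.633 (Hbb-y minus Hbb-b1) and 0.345 (Hba-x minus Hbb-y). Ireb2 had 0.285, Slc4a1 0.0365 and Ngb -0.00787 there. With channel 1 alone the globin mean was -0.663, and signs turned for probe 2 of Hbb-b1 (-0.201), Ftl1 (-0.526), Ncoa4 (-0.344), Gata1 (0.161), Ldb1 (-0.336), Slc2a1 (-0.285) and Blvrb (0.0832). Without the turn of swapped slides the globin mean was -0.628, and signs turned for Hbb-b1 (-0.0208) with its probe 2 (-0.229), Ftl1 (-0.640), Ncoa4 (-0.394), Gata1 (0.174), Ldb1 (-0.438), Slc2a1 (-0.338), Rhd (0.00823) and Blvrb (0.117). With values as deposited, signs turned for Hbb-b1 (-0.0184; probes -0.0119 and -0.0249), Ftl1 (-0.00942), Ncoa4 (-0.0736), Ldb1 (-0.0222) and Slc2a1 (-0.0709). Gata1 had 0.00940 under scaling, 0.00515 under quantile normalization and 0.00725 on first arrays. Quantile normalization shrank Hba-x to -0.0388, the globin mean to -0.0169, Hba-x minus Hbb-b1 to -0.0597 and Hba-x minus Hbb-y to -0.00599. With the lowess trend removed, Hba-x had -0.0652 and the globin mean was -0.0218. Leaving out each pair moved the globin mean between -0.0657 and -0.00489, Hba-x minus Hbb-y between -0.0926 (without pair 1) and 7.40e-04 (without pair 3), probe 1 of Hbb-y between -0.0919 (without pair 2) and 0.0142 (without pair 1), its probe 2 between -0.0836 and 0.00994 likewise, and probe 2 of Hbb-b1 between -0.00483 (without pair 2; -0.00386 without pair 3) and 0.0924 (without pair 1). With slides as units and no replicate block, 0 probes passed in each table and the mean effect of each globin probe stayed as it was. Counts of probes past the threshold, 0 in each table, ran from 24 to 30 in the first and from 0 to 58 in the second when a pair was left out, and were 33 and 1 with values as deposited. In the first table they were 219 without the turn, 174 with channel 1 alone and 668 with channel 2 alone. For the mean of both orientations, counts of 219 and 0 became 1099 and 270 under scaling, 908 and 347 under quantile normalization and 438 and 386 with the trended prior, and ran from 49 to 771 and from 84 to 1872 when a pair was left out. Values with 1 orientation or without the turn follow by definition from the treatment effect and the mean of both orientations. Values as deposited differ from centred ones by the same amount for every probe of a table. The cause of the other changes was not tested.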
